A study of Mus musculus with 8 samples.

Results

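A set of 10 genes best known from cartilage was followed through 8 RNA sequencing libraries of mouse myocardium. They are the transcription factors Sox9 and Runx2, the aggregate-forming proteins Acan and Hapln1, the matrix adaptors Comp, Chad and Matn3, and the secreted proteins Cilp2, Prg4 and Cytl1. They were taken by gene symbol, and all 10 were found once each among the 33249 genes of the deposited table. Of these, 6 had a mean of at least 0.5 FPKM (fragments per kilobase of transcript, scaled to library size) over the 8 libraries and entered the test across 14028 genes, and 4 (Runx2, Acan, Hapln1 and Matn3) lay under that level.

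The study asked what loss of the stretch-gated channel Piezo1 in cardiomyocytes does to the heart after myocardial infarction (MI). Piezo1fl/fl mice carry a Piezo1 gene flanked by loxP sites, and Piezo1Cko (CKO) mice carry in addition the Myh6-MerCreMer transgene, which is driven by a cardiomyocyte promoter and acts only after tamoxifen. Tamoxifen was given for 5 days from 4 weeks of age, and at 8 weeks the left anterior descending artery was tied permanently (MI) or the same operation was done without the ligature (Sham). Myocardium of the MI mice was labelled as taken at day 42. The labels form 4 groups of 2 libraries each, namely fl/fl-Sham and CKO-Sham, then fl/fl-MI and CKO-MI, and call the genotypes WT and Piezo1 knockout. The deletion can only reach cardiomyocytes, so Piezo1 of other cell types remains in every group, and littermate controls had no Cre. Whether the tissue came from scar, border or remote wall is not given in the sources used here.

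In cartilage, SOX9 switches on the genes of the chondrocyte matrix, and RUNX2 drives chondrocytes towards hypertrophy and bone formation. Aggrecan (Acan) binds hyaluronan and is locked to it by link protein (Hapln1), while COMP, chondroadherin (Chad) and matrilin-3 (Matn3) tie collagen fibrils to other matrix proteins and to cells. Several of these proteins are also made in tendon and in healing connective tissue, and the scar that replaces dead myocardium is rich in fibroblasts and collagen.

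Libraries held between 73821747 and 88117573 deposited counts, or 18455437 to 22029393 read pairs at 4 counts a pair. Mitochondrial genes took 43.1% to 46.4% of the counts in sham and 19.9% to 24.2% in MI libraries, and the effective library sizes were 58641394 to 73409897 counts in sham and 82857499 to 105861120 counts in MI. A level of 3 read pairs was thus 0.163 to 0.205 CPM in sham and 0.113 to 0.145 CPM in MI libraries, so low genes were measured at less depth in sham. Levels below are CPM, counts scaled to the effective library size, which compare libraries for 1 gene. FPKM is used where genes are compared with each other, for sums over lists and as a second scale. The median log2 fold change of all tested genes between MI and sham was 0.41 on log2(FPKM + 1) values, against 0.03 on counts. Sums in FPKM are thus shifted upwards in MI libraries. Because nothing states that the 2 libraries of a group came from separate animals, p-values measure only the spread between these libraries, which may be technical. In whole tissue, more cells of a type and more RNA per cell cannot be told apart.

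The labels were checked first. Piezo1 (ENSMUSG00000014444, chromosome 8) had 72.2 and 82.0 CPM in fl/fl-Sham and 76.7 and 88.3 CPM in CKO-Sham, against 53.5 and 64.8 CPM (fl/fl-MI) and 56.3 and 64.6 CPM (CKO-MI) after MI. It did not separate the genotypes, with a log2 difference of 0.03 (SE 0.16) between CKO-MI and fl/fl-MI. Esr1 (ENSMUSG00000019768, chromosome 10), whose hormone-binding part is joined to the recombinase in the transgene, had 5.52 to 8.36 CPM in all sham libraries and 7.75 CPM in fl/fl-MI 1. The level was 331 CPM in fl/fl-MI 2, 707 CPM in CKO-MI 1 and 402 CPM in CKO-MI 2. Esr1 thus went against the labels of fl/fl-MI 2 and of both CKO-Sham libraries. The labels are kept as given, so any direction between genotypes depends on them. The contrast of MI with sham averages the changes of both labelled genotypes, so its values and errors also rest on them.

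The library labelled fl/fl-MI 2 also stood apart in its tissue markers. Bmp10, Myl4, Myl7 and Sln, genes of the atria, had 927, 658, 2129 and 255 FPKM there and at most 3.16, 3.44, 9.18 and 1.34 FPKM in the other MI libraries. The 5 atrial genes summed to 109 to 498 FPKM in sham, 6522 FPKM in fl/fl-MI 1, 18719 FPKM in fl/fl-MI 2, and 5567 and 3704 FPKM in the libraries labelled CKO-MI 1 and CKO-MI 2. Nppa, also a gene of the strained ventricle, made up most of the sum in every MI library, with 14749 FPKM of it in fl/fl-MI 2. Of the 13 markers of scar fibroblasts, 10 were lowest of the MI libraries in fl/fl-MI 2, and their sum was 323 FPKM there against 443 to 996 FPKM in the others and 111 to 143 FPKM in sham. The 8 cardiomyocyte genes, which check the label of the tissue, summed to 7462 to 12610 FPKM.

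Over both genotypes, 5 of the 6 tested genes passed edgeR's quasi-likelihood test at a Benjamini-Hochberg adjusted p under 0.05 between MI and sham, and all 5 were higher after MI. Among all genes tested, 22% passed in that direction. With 1 mean for all MI and 1 for all sham libraries, a fit chosen after seeing the data that did not use the genotype labels, 4 of the 6 passed and were higher (22.7% of all genes), and Cytl1 did not pass (0.58, adjusted p = 0.279). The median log2 fold change of the 6 genes was 2.31, and that of all genes tested was 0.03. Cilp2 and Chad reached the 0.5 FPKM limit mainly through their MI libraries, which favours a difference, so the count is a description and not support. Cilp2 had under 0.5 FPKM in all 4 sham libraries and Chad in 3 of them. On log2(FPKM + 1) values in limma, the median of all genes moved to 0.41 and 7027 of 7864 called genes were higher, against 3091 of 5663 in edgeR, and the same 5 of the 6 genes passed and were higher.

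**Figure D1:**
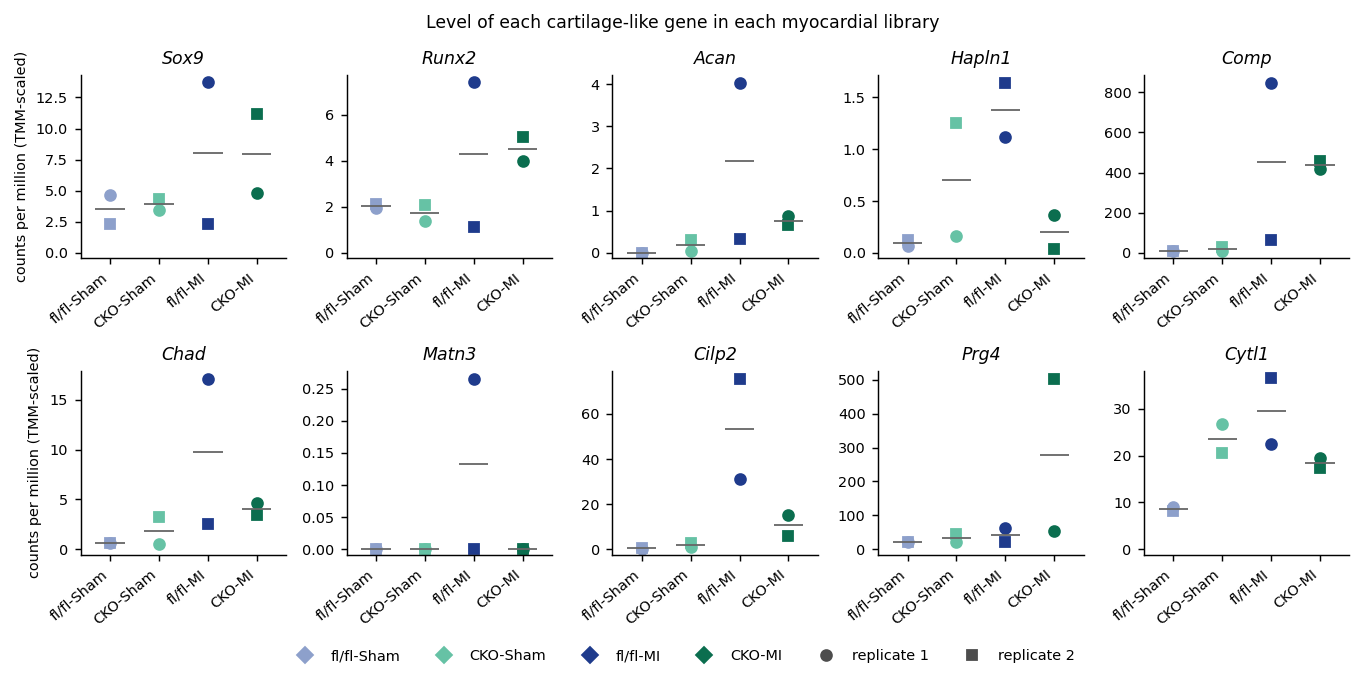
Level of each of the 10 genes in each library, in CPM on a linear axis for each gene, with groups as labelled; circles are replicate 1, squares replicate 2 and lines the mean of 2 libraries. Comp, Cilp2 and Acan were higher in every MI library than in every sham library, while Sox9, Runx2, Comp, Chad and Acan were highest in fl/fl-MI 1 and lowest of the MI libraries in fl/fl-MI 2.

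Comp (ENSMUSG00000031849, chr8:70373558-70382066, plus strand), cartilage oligomeric matrix protein or thrombospondin-5, had the highest mean FPKM of the 10 after MI, although Cytl1 was above it in fl/fl-MI 2 (37.6 against 22.7 FPKM). It had 9.72 and 9.54 CPM in fl/fl-Sham and 10.4 and 30.6 CPM in CKO-Sham, against 847 and 62.1 CPM (fl/fl-MI) and 416 and 458 CPM (CKO-MI) after MI. Every MI library lay above every sham library, and the library labelled fl/fl-MI 2 was far below the other 3. Comp rose by a log2 fold change of 4.99 (SE 0.83, adjusted p = 0.00443 in edgeR) over both genotypes, and the change was 3.53 without fl/fl-MI 1 and passed with any of the 8 libraries left out. Nearly all of its signal came from 1 coding transcript of 19 exons, which held 99.2% of the FPKM summed over its transcripts. In FPKM, which allows genes to be compared, Comp reached 22.7 to 365 in MI libraries, whereas Sox9 reached 0.608 to 4.26.

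Cilp2 (ENSMUSG00000044006, chr8:69880369-69887687, minus strand), a secreted matrix protein related to cartilage intermediate layer protein, lies on the same chromosome as Comp. It had 0.205 and 0.570 CPM in fl/fl-Sham and 0.831 and 2.65 CPM in CKO-Sham, against 31.0 and 75.3 CPM (fl/fl-MI) and 15.3 and 5.80 CPM (CKO-MI) after MI. The groups of MI and sham libraries did not overlap, and unlike Comp it was highest in the library labelled fl/fl-MI 2. Its log2 fold change was 4.85 (SE 0.61, adjusted p = 0.00169 in edgeR), and it passed with any of the 8 libraries left out, at 4.39 to 5.38. In CPM, 2 tested genes (Comp and Cilp2) had every MI above every sham library, beside 20.9% of all tested genes, and in FPKM 3 (with Chad), beside 48.6%.

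Chad (ENSMUSG00000039084, chr11:94565047-94569127, plus strand) encodes chondroadherin, a leucine-rich protein that binds collagen and integrins. It had 0.597 and 0.586 CPM in fl/fl-Sham and 0.518 and 3.21 CPM in CKO-Sham, against 17.1 and 2.52 CPM (fl/fl-MI) and 4.62 and 3.39 CPM (CKO-MI) after MI. CKO-Sham 2 lay above fl/fl-MI 2, so MI and sham overlapped in CPM, but not in FPKM, where they had 1.49 and 1.63. The log2 fold change was 2.58 (SE 0.74, adjusted p = 0.0301 in edgeR) and it passed in 3 of the 8 fits with a library left out, with 1.58 without fl/fl-MI 1 and 3.50 without CKO-Sham 2.

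Prg4 (ENSMUSG00000006014, chr1:150449412-150466165, minus strand) encodes lubricin, the boundary lubricant of joints, tendons and serous surfaces. It had 21.7 and 20.4 CPM in fl/fl-Sham and 21.3 and 43.6 CPM in CKO-Sham, against 61.2 and 22.0 CPM (fl/fl-MI) and 53.1 and 502 CPM (CKO-MI) after MI. The library labelled CKO-MI 2 was 9.45-fold above CKO-MI 1, and fl/fl-MI 2 was at the sham level. Its log2 fold change of 2.04 (SE 0.68) stood just inside the threshold (adjusted p = 0.0499 in edgeR), and it was 0.83 without CKO-MI 2 (adjusted p = 0.171). Its counts were spread over 8 coding transcripts, of which the largest share was 47.8%, so the division among them is uncertain.

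Cytl1 (ENSMUSG00000062329, chr5:37735519-37739820, plus strand), a small secreted protein, is found in chondrocytes and blood progenitors. It had 8.94 and 8.10 CPM in fl/fl-Sham and 26.6 and 20.5 CPM in CKO-Sham, against 22.5 and 36.6 CPM (fl/fl-MI) and 19.5 and 17.3 CPM (CKO-MI) after MI. Both libraries labelled fl/fl-Sham were below all others, and those labelled CKO-MI were below both labelled CKO-Sham. In FPKM, which differed in scaling, the CKO-MI libraries had 20.04 and 20.7 and the CKO-Sham libraries 20.2 and 15.2, so this order depended on the scaling. Of all tested genes, 32.5% were higher in both fl/fl-MI than in both fl/fl-Sham libraries, 23.2% higher in both CKO-Sham than in both fl/fl-Sham, and 35.8% lower in both CKO-MI than in both CKO-Sham. The log2 fold change over both genotypes was 0.72 (SE 0.18, adjusted p = 0.0190 in edgeR), which averaged 1.79 (SE 0.26) in fl/fl and -0.36 (SE 0.25) in CKO and passed in 4 of the 8 fits with a library left out.

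Sox9 (ENSMUSG00000000567, chr11:112782224-112787760, plus strand) had 4.64 and 2.34 CPM in fl/fl-Sham and 3.43 and 4.36 CPM in CKO-Sham, against 13.8 and 2.32 CPM (fl/fl-MI) and 4.80 and 11.1 CPM (CKO-MI) after MI. The libraries labelled fl/fl-MI 1 and CKO-MI 2 were high, CKO-MI 1 was just above the sham libraries, and fl/fl-MI 2 was the lowest of all 8 in CPM, though in FPKM it was above fl/fl-Sham 2 (0.608 against 0.464). The log2 fold change of 1.12 (SE 0.57) did not pass (adjusted p = 0.156 in edgeR). It was 1.51 and passed (adjusted p = 0.00976) when fl/fl-MI 2 was left out, and 0.20 (adjusted p = 0.672) without fl/fl-MI 1. The part of the atrial markers and of the lower fibroblast markers of fl/fl-MI 2 in this was not tested.

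**Figure D2:**
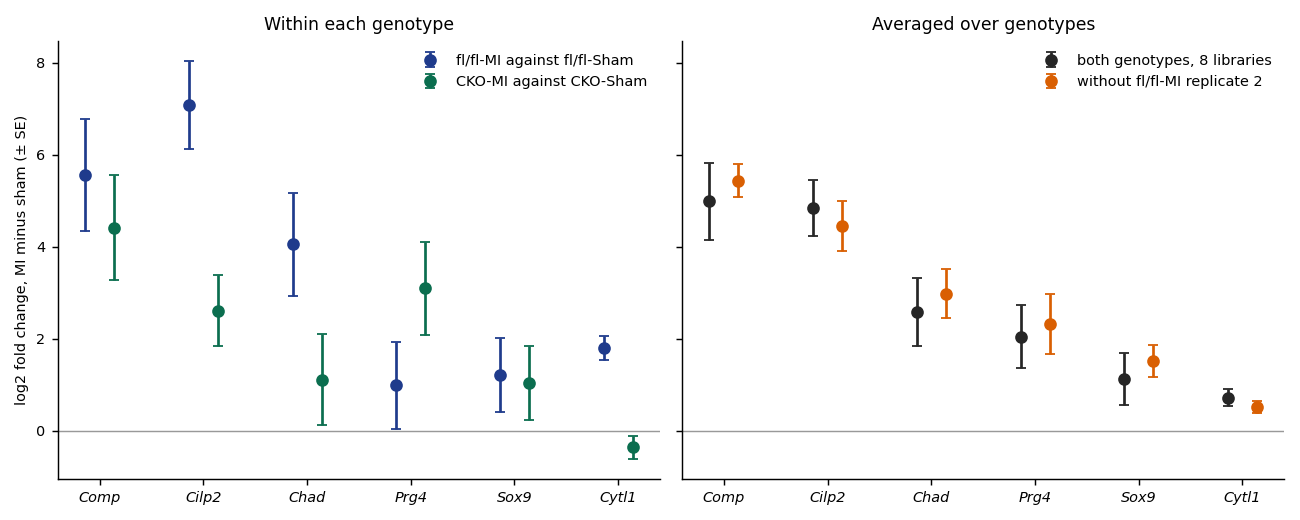
Log2 fold change between MI and sham of the 6 tested genes with standard errors from edgeR, on the left within each labelled genotype and on the right over both genotypes with all 8 libraries or without fl/fl-MI 2. Over both genotypes Comp and Cilp2 changed most, and leaving out fl/fl-MI 2 moved Sox9 from 1.12 to 1.51 with a smaller error.

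The other 4 genes were too low for the fit and were tested singly by an exact two-sided permutation test of the 4 MI against the 4 sham libraries, whose smallest possible p is 0.0286. Runx2 (ENSMUSG00000039153, chr17:44495987-44814797, minus strand) had 1.93 and 2.10 CPM in fl/fl-Sham and 1.36 and 2.07 CPM in CKO-Sham, against 7.42 and 1.13 CPM (fl/fl-MI) and 3.97 and 5.02 CPM (CKO-MI) after MI. As with Sox9, the other 3 MI libraries lay above every sham library and fl/fl-MI 2 was below them all in CPM, but in FPKM above CKO-Sham 1 (0.139 against 0.122). The exact permutation p was 0.143. With the limit lowered to 0.1 FPKM its log2 fold change was 1.28 (adjusted p = 0.106 in edgeR). It was 1.68 without fl/fl-MI 2 and 0.29 without fl/fl-MI 1, values given as a description because these libraries were singled out after seeing the data.

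Runx2 is read from 2 starts, and the proteins begin differently. Almost all counts fell on the coding transcript of the proximal start, ENSMUST00000113572, which held 95.6% of the counts over 8 transcripts, and the 3 transcripts that begin at the distal start held 1.79%. The first coding bases of the transcripts from the distal start (ENSMUST00000113571, start codon at chr17:44814224-44814226, minus strand) and from the proximal start (start codon at chr17:44735632-44735634, minus strand) are shown because this pair tells the forms apart. Sequences are from GENCODE M21 on GRCm38, with the coding bases that are not shared in capitals, 57 and 15 of them, and the first 33 of the 1530 shared bases in lower case.
Runx2 distal start: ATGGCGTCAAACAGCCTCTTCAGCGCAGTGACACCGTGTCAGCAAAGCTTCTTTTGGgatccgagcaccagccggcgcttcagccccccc
Runx2 proximal start: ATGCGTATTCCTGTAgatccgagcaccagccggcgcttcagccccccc
The proximal coding transcript had 113, 124, 99 and 126 counts in the sham libraries and 747, 94, 330 and 447 counts in the libraries labelled fl/fl-MI 1, fl/fl-MI 2, CKO-MI 1 and CKO-MI 2. The distal transcripts had counts in the libraries labelled fl/fl-MI 1 (10 counts) and CKO-MI 2 (29 counts) and none in the other 6. The split between transcripts that share most exons rests on the authors' assignment.

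**Figure D3:**
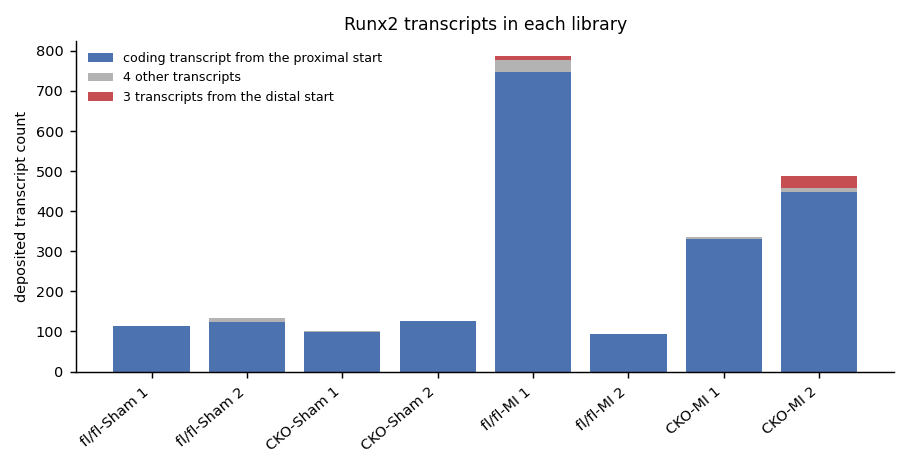
Deposited transcript counts of Runx2 in each library, not scaled for depth, with the proximal coding transcript, 4 other transcripts and the 3 transcripts from the distal start stacked. The proximal transcript held 95.6% of the counts, and the library labelled fl/fl-MI 2 had 94 of its counts against 330 to 747 in the other MI libraries.

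Acan (ENSMUSG00000030607, chr7:79053483-79115099, plus strand), the large proteoglycan of cartilage, was at 0 in both libraries labelled fl/fl-Sham and at 0.0545 and 0.313 CPM in CKO-Sham. It had 4.02 and 0.326 CPM (fl/fl-MI) and 0.862 and 0.660 CPM (CKO-MI) after MI. All MI libraries were above all sham libraries, narrowly so for fl/fl-MI 2 with 27 counts against 19 counts in CKO-Sham 2. The exact permutation p, not adjusted, was 0.0286, the smallest it can be and the value that any gene without overlap gets. Of the tested genes, which do not include Acan, 20.9% had every MI above every sham library in CPM and 48.6% in FPKM. With each fl/fl-Sham library set to 3 read pairs, the limit that 0 allows, the mean of the fl/fl-MI libraries was at least 11.0-fold higher than that of fl/fl-Sham. This rests on fl/fl-MI 1, since fl/fl-MI 2 alone was at least 1.65-fold higher. Its transcript of 17 exons held 86.3% of the FPKM summed over its transcripts.

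Hapln1 (ENSMUSG00000021613, chr13:89539796-89611652, plus strand), the link protein that holds aggrecan on hyaluronan, did not follow Acan. It had 0.0682 and 0.127 CPM in fl/fl-Sham and 0.163 and 1.25 CPM in CKO-Sham, against 1.11 and 1.64 CPM (fl/fl-MI) and 0.366 and 0.0412 CPM (CKO-MI) after MI. It was highest in fl/fl-MI 2, MI and sham overlapped, and the exact permutation p was 0.4. CKO-MI 2 was the lowest of all 8 in CPM, with 1 read pair. The fl/fl-Sham libraries had 1 and 2 read pairs and CKO-Sham 1 had 3. These values are at or under the level of 3 read pairs, so nothing is read from their order. Matn3 (ENSMUSG00000020583, chr12:8947929-8972028, plus strand) had 28 counts, 7 read pairs, in fl/fl-MI 1 and none in the other 7 libraries (exact permutation p = 1). A count of 0 allows up to 3 read pairs a library, a limit that covers counting error only, so Matn3 was not detectable there at this depth.

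The 250 bases before the RefSeq start (GRCm38.p6) were available for 7 of the 10 genes and were searched on both strands for SOX cores (AACAAT or ACAAAG) and RUNX cores (TGTGGT or TGCGGT). A SOX core was found for Cilp2, and RUNX cores for Runx2, Chad and Hapln1. The window of Runx2 lies at its distal start, whose transcripts held 1.79% of its counts, and the proximal start was not searched. Among all 32851 such windows, 7896 held a SOX core and 6107 (18.6%) a RUNX core. The windows of Chad and Cytl1, which passed edgeR's test over both genotypes, and of Acan are shown. Acan was not in that test and had the smallest possible exact permutation p, not adjusted. In all of them the RefSeq start lies at or before the start in the deposited table. Capitals mark a RUNX core, and the lack of a match says only that these letters are not in the window.
Chad, chr11:94564797-94565046, plus strand: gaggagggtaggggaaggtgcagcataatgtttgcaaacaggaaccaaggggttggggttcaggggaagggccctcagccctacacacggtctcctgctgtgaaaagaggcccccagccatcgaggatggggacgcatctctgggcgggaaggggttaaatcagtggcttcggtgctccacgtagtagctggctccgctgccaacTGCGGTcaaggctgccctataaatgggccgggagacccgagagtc
Acan, chr7:79052976-79053225, plus strand: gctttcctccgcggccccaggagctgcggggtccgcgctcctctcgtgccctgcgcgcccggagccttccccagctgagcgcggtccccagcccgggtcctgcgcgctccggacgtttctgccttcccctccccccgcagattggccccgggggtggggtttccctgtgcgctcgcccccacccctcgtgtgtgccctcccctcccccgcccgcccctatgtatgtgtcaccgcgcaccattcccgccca
Cytl1, chr5:37735269-37735518, plus strand: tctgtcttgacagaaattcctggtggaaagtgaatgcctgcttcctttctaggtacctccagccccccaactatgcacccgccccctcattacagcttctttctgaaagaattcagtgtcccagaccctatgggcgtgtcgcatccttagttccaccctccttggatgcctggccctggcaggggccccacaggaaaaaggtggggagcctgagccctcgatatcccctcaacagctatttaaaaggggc
The window of Chad was 60.4% G or C, that of Acan 74.4% and that of Cytl1 54.8%.

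The order of the MI libraries differed among the 10 genes and is given as a description. The library labelled fl/fl-MI 1 was the highest of the 4 for Sox9, Runx2, Comp, Chad, Acan and Matn3, and fl/fl-MI 2 was the lowest for the first 5 of these and for Prg4. Between these 2 libraries of 1 group the ratio was 13.6 for Comp, 12.3 for Acan, 6.77 for Chad, 6.54 for Runx2 and 5.94 for Sox9, while 8.63% of tested genes were at least 2-fold higher in fl/fl-MI 1. Cilp2, Hapln1 and Cytl1 went the other way, with fl/fl-MI 2 over fl/fl-MI 1 by 2.43, 1.47 and 1.63. Of these only Cilp2 was at least 2-fold higher in fl/fl-MI 2, as were 8.3% of tested genes. Acan, Runx2 and Hapln1 were not among the tested genes. Among all tested genes, 24.6% were highest of the MI libraries in fl/fl-MI 1 and 33.5% in fl/fl-MI 2. Of the 6 tested members, 3 were highest in fl/fl-MI 1 and 2 in fl/fl-MI 2. No share over all genes is given for the lowest library. The epicardial markers summed to 48.8 FPKM in fl/fl-MI 1, 71.4 FPKM in fl/fl-MI 2, and 15.9 and 37.3 FPKM in CKO-MI, against 11.4 to 15.5 FPKM in sham, and 7 of the 8 were highest in fl/fl-MI 2. The part of atrial, epicardial or fibroblast RNA in these orders was not tested.

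**Figure D4:**
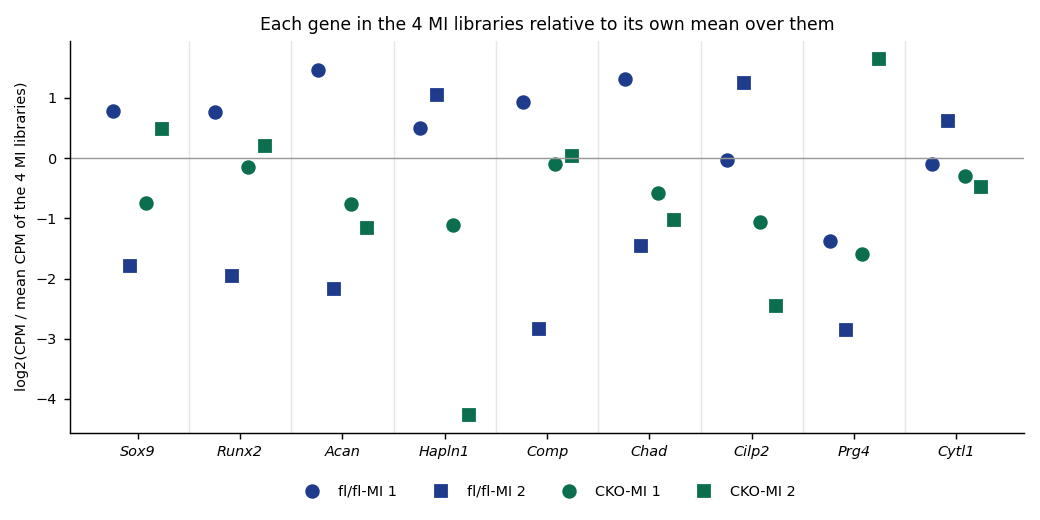
Each gene in the 4 MI libraries as log2 of its CPM over its own mean CPM in those libraries; Matn3 is left out because it was 0 in 3 of them. The square of fl/fl-MI 2 is at the bottom for Sox9, Runx2, Acan, Comp, Chad and Prg4 and at the top for Hapln1, Cilp2 and Cytl1.

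Within the genotypes as labelled, 4 of the 6 tested genes rose between fl/fl-Sham and fl/fl-MI in edgeR, where 10.1% of all genes were. The log2 fold changes were 7.08 for Cilp2 (SE 0.96, adjusted p = 0.00704), 5.56 for Comp (SE 1.21, adjusted p = 0.0247), 4.05 for Chad (SE 1.12, adjusted p = 0.0475) and 1.79 for Cytl1 (SE 0.26, adjusted p = 0.00789). With fl/fl-MI 1 left out, Comp had 2.66 and Chad 2.06 (adjusted p = 0.109), and with fl/fl-MI 2 left out they had 6.46 and 4.85. These calls were not kept with either fl/fl-Sham library left out. There 1 library stood for its group, and far fewer of all genes tested passed as well. Between CKO-MI and CKO-Sham, Comp (4.41, SE 1.14, adjusted p = 0.0325) and Cilp2 (2.61, SE 0.77, adjusted p = 0.0482) were higher in edgeR, beside 12.8% of all genes. Prg4 had 3.10 (SE 1.01, adjusted p = 0.063), or 0.71 without CKO-MI 2. It passed in 3 of the 8 fits with a library left out and in DESeq2 (adjusted p = 0.0209, beside 17.2% of all genes higher there), and Comp and Cilp2 each passed in 2 of the 8 fits with a library left out, those without a library labelled fl/fl-MI.

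Between CKO-MI and fl/fl-MI, as labelled, 0 of the 6 genes and 0% of all genes passed edgeR's test, 3 of the 6 had an unadjusted p under 0.05 (8.31% of all genes), DESeq2 called 1 (Cilp2, beside 1.48% of all genes) and limma none. At an unadjusted p under 0.05 with a 2-fold change there were 2 of the 6, beside 3.21% of all genes. Cilp2 was lower in CKO-MI by a log2 difference of -2.33 (SE 0.74, adjusted p = 0.549), Cytl1 by -0.68 (SE 0.25, adjusted p = 0.556), and Prg4 was higher by 2.74 (SE 0.99, adjusted p = 0.556). The other 3 had wide errors, with -0.06 (SE 0.99) for Comp, -0.01 (SE 0.79) for Sox9 and -1.29 (SE 0.98) for Chad. Without the library labelled fl/fl-MI 1, so that fl/fl-MI 2 stood alone for its group and was assumed to vary like the others, Comp was 2.83 higher (adjusted p = 0.0246), Cilp2 lower (-2.81, adjusted p = 0.0433) and Cytl1 lower (-0.98, adjusted p = 0.0222) in CKO-MI, beside 11.9% of all genes called. Without fl/fl-MI 2 none passed (0.192% of all genes), and Comp was at -0.95. The sign for Comp, Sox9 and Chad therefore depended on which fl/fl-MI library was kept.

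Between the sham libraries, 0 of the 6 genes passed edgeR's test between CKO-Sham and fl/fl-Sham, where 0.00713% of all genes did, and 2 had an unadjusted p under 0.05 (3.89% of all genes), both with a 2-fold change (0.891%). Cytl1 was higher in the libraries labelled CKO-Sham by 1.47 (SE 0.26, unadjusted p = 0.000744, adjusted p = 1 over all genes in edgeR), a call in DESeq2 (adjusted p = 0.000938, beside 0.242% of all genes) but not in limma. Cilp2 differed by 2.14 (SE 0.86), or 1.09 without CKO-Sham 2. The library labelled CKO-Sham 2 was the highest sham library for Comp, Chad, Cilp2, Acan, Hapln1 and Prg4, and no share over all genes is given for this. It also had the highest atrial sum of the sham libraries, 498 FPKM against 109 to 217 FPKM. Nppa made up 456 FPKM of it. Myl4, Myl7 and Sln were also highest there, whereas Bmp10 had 2.76 FPKM against 2.32 to 3.22 FPKM. Its fibroblast sum was the highest of sham as well, 143 FPKM against 111 to 125 FPKM. The part of atrial or fibroblast RNA in this was not tested.

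The change after MI was set against genotype in an interaction term, and 0 of the 6 genes passed edgeR's test (0% of all genes), with 2 under an unadjusted p of 0.05 (8.49% of all genes), both with a 2-fold change (4.1%), and DESeq2 calling both (0.952% of all genes) and limma neither. These were Cilp2 at -4.47 (SE 1.13, adjusted p = 0.574 in edgeR and 0.00311 in DESeq2) and Cytl1 at -2.15 (SE 0.36, adjusted p = 0.56 in edgeR and 0.00063 in DESeq2). For both the log2 fold change was higher in fl/fl (7.08 and 1.79) than in CKO (2.61 and -0.36), and this difference rests on the labels that Esr1 went against.

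Other genes of cartilage and connective tissue were grouped in lists, whose members exclude the 10. Of the chondrocyte matrix list, 20 of 21 genes were found and 8 tested, and 5 were higher in MI over both genotypes in edgeR and none lower, with a median of 1.39. They were Fmod (log2 fold change 4.41, adjusted p = 0.00726), Vcan (1.81), Prelp (2.43), Matn2 (0.97) and Cilp (3.41), proteoglycans and adaptors that tendon and scar also make. Of the genes that define hyaline cartilage, Col9a1 had at most 0.0308 FPKM and Matn1 was at 0 in 7 of the 8 libraries. Col2a1, the main collagen, had 0.0563 to 0.133 FPKM in sham, 0.466 FPKM in fl/fl-MI 1 and 0.0651 to 0.173 FPKM in the other MI libraries, where Acan had 0.687 and 0.0453 to 0.124 FPKM. Col9a2 (1.55 FPKM), Col11a1 (1.13 FPKM) and Ucma (1.23 FPKM) were also highest in fl/fl-MI 1, with at most 0.364, 0.245 and 0.222 FPKM in the other 7 libraries. Col11a2 had 0.537 to 0.998 FPKM in all 8 libraries. These genes were named after their values were seen.

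Of 15 chondrogenic transcription factors 7 were tested and 3 were higher, namely Trps1 (0.99), Runx1 (2.07) and Sox6 (0.82), with a median of 0.64, and none was lower. Runx1, a relative of Runx2 that binds the same motif, had 3.15 to 3.87 CPM in sham and 20.1, 5.60, 15.1 and 18.7 CPM in the libraries labelled fl/fl-MI 1, fl/fl-MI 2, CKO-MI 1 and CKO-MI 2. Of the bone and mineralization list 7 were tested and 5 were higher with a median of 0.77, led by Mgp (1.63), which restrains calcification, and Enpp1 (2.66), which makes pyrophosphate. Of the tendon and fibrocartilage list 8 were tested and 6 were higher with a median of 3.23, among them Fbln7 (3.21), Lum (1.10), Egr1 (2.52) and Angptl7 (4.58). Sox6, Runx1, Fbln7 and another called gene of the tendon list had under 0.5 FPKM in every sham library and entered the test through MI libraries. As with Cilp2 and Chad this favours a rise, so the counts and medians of the lists are descriptions.

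Of 23 chondrogenic signals and receptors 18 were tested, 10 were higher and 3 lower, with a median of 1.49. Ccn2, or connective tissue growth factor, rose by 3.56 and Ccn4 by 1.996, whereas Bmp6 had -0.75 and Fgfr3, a brake on chondrocyte growth, had -1.24. Of 22 enzymes that build or cut the cartilage matrix 17 were tested, 8 were higher and 2 lower, with a median of 0.57. Adamts7, a protease that cuts COMP, fell by 1.74 on the log2 scale (adjusted p = 0.00144 in edgeR), and Mmp3 (2.23), Has1 (3.61) and Chsy1 (0.95) were higher. Ccn4, Has1 and several other called genes of these lists had under 0.5 FPKM in every sham library and likewise entered the test through MI libraries. Beside these counts, 22% of all tested genes were higher and 18.3% lower, and nothing particular to a list is read from them. Hyal2 was the only called gene of the 15 lists whose sign differed on log2(FPKM + 1) values.

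The lists for other tissues were read the same way. Of the 13 scar fibroblast genes 10 were higher and none lower with a median of 1.70, and Postn, a marker of activated fibroblasts, had 74.6 and 70.2 CPM in fl/fl-Sham and 14.9 and 19.2 CPM in CKO-Sham, against 813 and 111 CPM (fl/fl-MI) and 492 and 718 CPM (CKO-MI) after MI. Of 7 tested epicardial genes 4 were higher (median 3.32), of 5 endothelial genes 5 were lower (median -1.49), of 5 macrophage genes 2 were higher (median 0.43), of 5 atrial genes 1 was higher (median 2.97, or -0.75 without fl/fl-MI 2), and of 8 cardiomyocyte genes 2 were higher and 3 lower. Of 5 contractile genes of smooth muscle 1 was lower. Several called epicardial genes had under 0.5 FPKM in every sham library and entered the test through MI libraries. Without fl/fl-MI 2, where 26.9% of all genes were higher and 23.8% lower, the cardiomyocyte list had 2 higher and 5 lower, the contractile list none, the atrial list 1 and 1, the fibroblast list 11 higher, the epicardial list 5 higher, and rib or airway cartilage 1 lower of 2. The list for mature cartilage of rib or airway summed to 1.96 to 2.25 FPKM in sham, 5.27 FPKM in fl/fl-MI 1, the library highest for 6 of the 10 genes, and 1.67 to 2.61 FPKM in the other MI libraries. The part of such cartilage in the levels of fl/fl-MI 1 was not tested. The list for skeletal muscle of the chest wall summed to 0.703 to 4.11 FPKM in sham and 1.34 to 4.15 FPKM in MI, and 0 of the 2 tested genes of either list, cartilage or muscle, was called in edgeR with all 8 libraries.

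**Figure D5:**
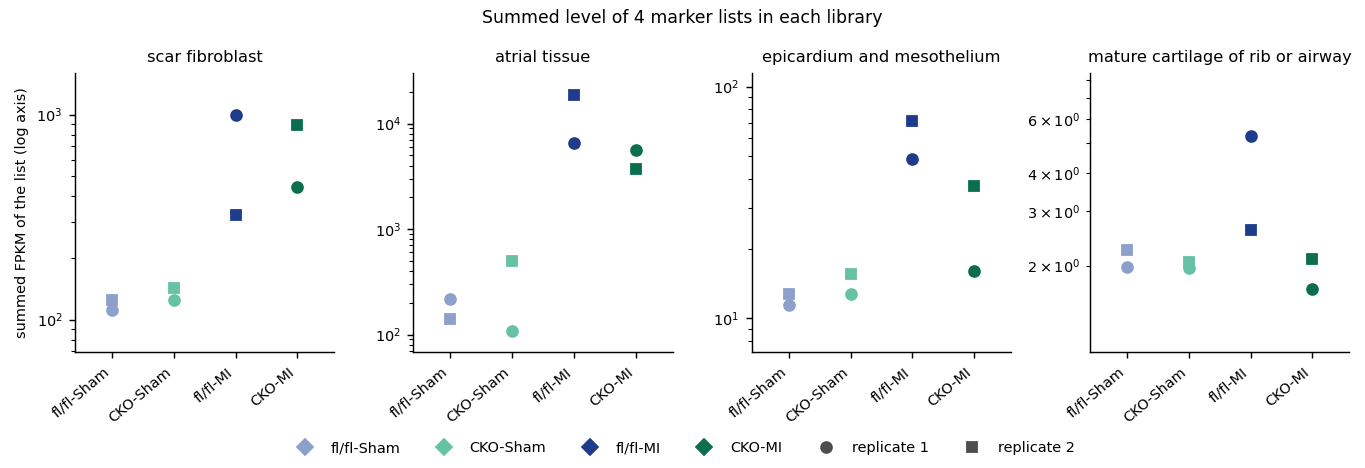
Summed FPKM of the genes of 4 marker lists in each library on log axes, with groups as labelled, circles for replicate 1 and squares for replicate 2. The library labelled fl/fl-MI 2 had the highest atrial sum (18719 FPKM) and the lowest fibroblast sum of the MI libraries (323 FPKM), and the sum for rib or airway cartilage was 5.27 FPKM in fl/fl-MI 1 and 1.67 to 2.61 FPKM in the other 7.

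Over the 8 libraries, the genes whose levels ran most like the mean standardized profile of the 6 tested genes were Setdb2 (Pearson's r = 0.99), Gm16332 (0.985), Itgam (0.984), Yipf5 (0.982) and Atp6v1a (0.979). These values describe 8 libraries of 2 very different conditions and carry no p. They compare the shape of a profile and not the size of a change. Between MI and sham the log2 fold changes of these 5 genes were 0.24, 2.34, 1.28, 0.41 and 0.38 in that order. Setdb2 did not pass edgeR's test. Itgam, a receptor of macrophages and other myeloid cells, had 8.59 to 16.9 CPM in sham and 38.4, 23.5, 21.04 and 34.4 CPM in the libraries labelled fl/fl-MI 1, fl/fl-MI 2, CKO-MI 1 and CKO-MI 2. Of the 6 genes themselves, Comp correlated most with that profile (0.957) and Cytl1 least (0.565), each gene being part of it.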

How the data were processed

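RNA of 8 mouse myocardial libraries, 2 in each labelled group, was measured by paired-end sequencing of poly(A) RNA, with reads of 150 bases. The authors trimmed reads with cutadapt 1.9 and checked them with FastQC, per the submitters' processing notes. Which aligner, which counter and which annotation release they used is not given in the sources used here. The authors deposited whole-number counts per gene and transcript without normalization. A count of 4 was held by 1107 genes per library on average, against 469 for a count of 3 and 325.5 for 5, with a like excess at 8 and 12, so 4 counts were taken as about 1 read pair, although 1 and 2 also occurred often. The authors also deposited FPKM, normalized to length and library size. Identifiers and coordinates of the 10 genes were those of GENCODE M21 on GRCm38.

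Genes with a mean of at least 0.5 FPKM over the 8 libraries were tested on the counts with edgeR 4.0.16 (R 4.3.3), with TMM normalization, 1 mean per group, the quasi-likelihood F test, Benjamini-Hochberg adjustment over the 14028 genes and a threshold of 0.05. Standard errors were derived from each fold change and its F value. Genes under the limit were tested singly by an exact two-sided permutation test of CPM (scipy 1.17.1). Alternatives were DESeq2 1.42.0, limma 3.58.1 on log2(FPKM + 1) or log2(FPKM + 0.1), other filters and normalizations, a replicate block and leaving out each library. The edgeR, DESeq2 and limma fits were tested on simulated data for the contrast of MI with sham. The replicate numbers were not used to pair the libraries, because the labels give them no shared source. The deviations of same-numbered libraries correlated at -0.21 to 0.06, which cannot exclude a shared batch. Named genes are the 10, at most 4 called genes a list by smallest adjusted p, defining genes at or near 0, and the 5 genes most like the mean profile. Piezo1 and Esr1 were added as checks of the labels, and Cilp, Hyal2, Col9a2, Col11a1, Col11a2, Ucma, Postn, Nppa, Bmp10, Myl4, Myl7 and Sln were named after their values were seen. The 10 genes and the lists were chosen with earlier results of these data known. For those 10, 7 upstream windows came from RefSeq on GRCm38.p6, and coding sequences from GENCODE M21.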

Additional observations from a re-analysis of the deposited data

Results flagged for a closer look

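Of 19 sets of 4 libraries (a gene in the sham or in the MI arm), 8 values lay far from the other 3 of their arm, with a gap to the nearest library above Dixon's 95% limit for 4 values. Chance flags about 1 in 20. The library labelled CKO-Sham 2 was high among the sham libraries for Comp (30.6 CPM), Chad (3.21 CPM), Hapln1 (1.25 CPM) and Prg4 (43.6 CPM). The library labelled fl/fl-MI 1 was high among the MI libraries for Chad (17.1 CPM), Acan (4.02 CPM) and Matn3 (0.264 CPM). For Matn3 the other 3 were at 0, where any value above 0 is flagged. The library labelled CKO-MI 2 was high for Prg4 (502 CPM). The arms mix both labelled genotypes.

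For Cytl1 the libraries labelled fl/fl-MI were both above fl/fl-Sham and those labelled CKO-MI both below CKO-Sham in CPM. The difference between the changes was -2.15 on the log2 scale, with an unadjusted p of 0.000557 and an adjusted p of 0.56 in edgeR, and the order in CKO did not hold in FPKM.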

How the results depend on the processing

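Over both genotypes, 5 of the 6 genes passed; with a library left out the number was 2 to 6, with a filter of 5 FPKM 2 of 3, with the replicate block 3, and with a filter of 0.1 FPKM without fl/fl-MI 2, chosen after seeing the data, 8 of 9, or 4 of 9 without fl/fl-MI 1 instead; with the genotype labels not used it was 4. In fl/fl, 4 passed; with a library left out 0 to 5, with a filter of 5 FPKM or the replicate block 2, with the 4 libraries compared alone 1, and with 0.1 FPKM without fl/fl-MI 2 7. Among all 14028 genes, 5663 passed over both genotypes and 2596 in fl/fl. With 5 FPKM these were 2906 and 1602 of 5524 genes, and with the replicate block 5085 and 1689 of 14028. In fl/fl with the 4 libraries alone it was 199, and over both genotypes with the labels not used 5848. In both contrasts more of all genes passed without either fl/fl-MI library, also at 0.1 FPKM, and fewer without any other library. In CKO, 2 passed, beside 3467 of 14028 genes. With a filter of 0.1 FPKM 1 passed (3229 of 19032 genes), with 5 FPKM 1 (2105 of 5524) and with the replicate block 0 (2677 of 14028). In each of these contrasts the number also changed with the library left out. Between CKO-MI and fl/fl-MI none passed, beside 0 of 14028 genes. DESeq2 gave 1 (207 of 14028 genes) and an unadjusted p under 0.05 with a 2-fold change 2 (450 of 14028). The number rose without fl/fl-MI 1, where more of all genes passed as well. Between the sham groups none passed, beside 1 of 14028 genes. DESeq2 gave 1 (34 of 14028 genes), the 4 libraries alone 1 (165) and the unadjusted rule 2 (125). In the interaction none passed, beside 0 of 14028 genes. DESeq2 gave 2 (131 of 13756 genes) and the unadjusted rule 2 (575 of 14028). Here too the number rose without fl/fl-MI 1, as it did for all genes. With the replicate block none of the 6 genes passed between the MI groups, between the sham groups or in the interaction. With a library left out, the log2 difference of CKO-MI from fl/fl-MI ran from -0.79 to 1.79 for Sox9, -0.95 to 2.83 for Comp and -2.09 to 0.68 for Chad. With a filter of 0.1 FPKM without fl/fl-MI 1, a fit chosen after seeing the data, it was 1.84, 2.87 and 0.73. Cilp2 and Comp kept their call over both genotypes under every alternative run that tested them. Of the 4 low genes, 1 (Acan) had an unadjusted exact permutation p under 0.05 on each scale tried. The scales rest on the same counts, and arms that do not overlap always give that p, so they are not separate support. With a library left out the exact test cannot go below 0.0571 and was not run. In FPKM the exact p of Runx2 was 0.114 and that of Hapln1 0.257, against 0.143 and 0.4. Causes were not tested.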
